A study of Mus musculus with 12 samples.

Results

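The genes described here are 34 enzymes and enzyme subunits of the tricarboxylic acid (TCA) cycle, the pyruvate dehydrogenase complex and the reactions that feed carbon and amino groups into them. They were taken by name from a table of 34866 genes measured in immortalized mouse embryonic fibroblasts (MEFs) with and without sirtuin 3 (Sirt-3), a deacetylase of the mitochondrial matrix. A total of 12504 genes had a mean of at least 1 TPM, a share of all transcripts that is corrected for transcript length, over the 12 libraries, and all 34 enzymes were among them. There were 4 groups of 3 libraries, WT and KO MEFs of each sex. The Sirt-3 WT line of mice was 129S1/SvImJ and the KO line was a Sirt-3 knockout stock. MEFs were isolated from single embryos, sexed by PCR for Sry, immortalized with an SV40 T-antigen plasmid that WT and KO cells alike carry, seeded at passage 6 and collected 48 h later. The methods describe wells seeded in triplicate and do not say how many lines a group came from. With 1 line a group, the line cannot be told apart from genotype and sex, and the tests measure the spread between wells.

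The TCA cycle oxidizes acetyl-CoA to carbon dioxide in the mitochondrial matrix and hands the electrons to the respiratory chain. Pyruvate enters as acetyl-CoA through pyruvate dehydrogenase or as oxaloacetate through pyruvate carboxylase. Glutamate enters as 2-oxoglutarate through glutamate dehydrogenase or the aminotransferases, while phosphoenolpyruvate carboxykinase and the malic enzymes take carbon out again. Several of these proteins, among them isocitrate dehydrogenase 2 (Idh2) and glutamate dehydrogenase (Glud1), are known substrates of Sirt-3, which acts on protein acetylation. The values below are mRNA levels and carry no information on acetylation or activity.

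Sirt3 mRNA was not lower in the libraries labelled KO. Its level ran from 6.59 to 9.07 TPM in male WT and from 8.88 to 11.0 TPM in male KO libraries, and from 7.40 to 8.69 TPM in female WT against 7.57 to 9.06 TPM in female KO libraries. The paper also shows an immunoblot of Sirt3 protein, a level that these mRNA values do not measure. KO means a library labelled KO throughout, in every direction given. Of 10 fibroblast markers 9 had a mean of at least 1 TPM, and Lum did not. The summed level of 5 epithelial markers was from 76.0 to 77.8 TPM in male WT against 7.90 to 8.78 in male KO libraries, and from 19.7 to 22.7 TPM in female WT against 7.40 to 10.2 in female KO libraries, most of it Krt19, with Cdh1 and Krt8 near 0. Of 3 muscle markers, Myod1 and Myog were near 0 in all groups and the summed level exceeded 1 TPM in female WT libraries only, at 5.71 to 6.60. Of 4 endothelial markers Pecam1, Cdh5 and Tek were near 0, and the summed level, mostly Kdr, was from 4.72 to 5.76 TPM in female WT against 1.87 to 2.25 in female KO libraries, and from 1.80 to 2.11 in male WT against 1.40 to 1.63 in male KO libraries. The summed level of 4 neural markers, mostly Tubb3 with Sox10 near 0, was from 10.1 to 11.2 TPM in male WT against 12.5 to 15.0 in male KO, and from 16.9 to 18.4 in female WT against 13.6 to 16.8 in female KO libraries. That of 4 blood markers, mostly Cd68 with Ptprc and Adgre1 near 0, overlapped between KO and WT in each sex. The summed fibroblast markers ran from 9087 to 10204 TPM in male WT against 11429 to 12126 in male KO, and from 7937 to 8124 TPM in female WT against 9710 to 10044 in female KO libraries. The part of these markers in the results was not tested. In such bulk samples fewer cells of a type and less RNA per cell cannot be told apart.

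The enzymes were expressed over a wide range. Mdh2, the mitochondrial malate dehydrogenase, was the highest at a mean of 496 TPM over the 12 libraries (471 to 525), followed by the mitochondrial aspartate aminotransferase Got2 at 195, citrate synthase (Cs) at 189, Idh2 at 175 and Glud1 at 172. The lowest were Me3, a mitochondrial malic enzyme, at 2.66 TPM and the pyruvate dehydrogenase phosphatases Pdp2 at 3.88 and Pdp1 at 6.84. Mitochondrial forms stood above their cytosolic counterparts for malate dehydrogenase (Mdh1, 94.5 TPM), isocitrate dehydrogenase (Idh1, 23.5) and aspartate aminotransferase (Got1, 66.6). The cytosolic aconitase Aco1, which also acts as an iron regulatory protein, stood at 42.7 TPM.

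**Figure D1:**
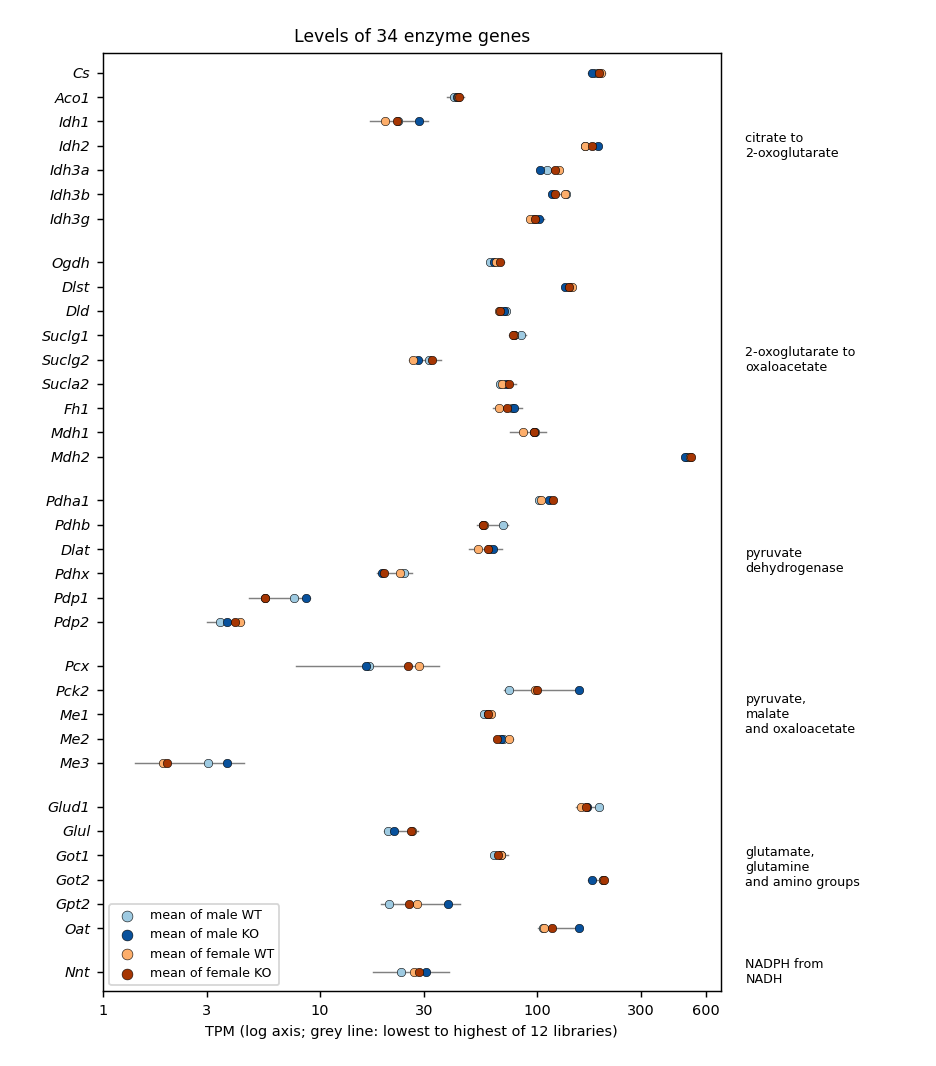
Mean TPM of each of the 34 genes in the 4 groups (points, n = 3 libraries each) on a log axis, with a grey line from the lowest to the highest of the 12 libraries, ordered by role. The group means of most genes nearly coincide, and Pck2, Gpt2, Oat, Me3, Pdp1 and Pcx spread the widest.

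Most of the enzyme genes differed little between genotypes, and those that did were fewer in females. Idh3b and Pdha1 passed in each sex, Suclg2 passed in females, and 7 others passed in males. Between male KO and male WT MEFs 9 of 34 genes passed the test at an adjusted p under 0.05 (limma, Benjamini-Hochberg), 5 higher and 4 lower in KO, which is 26.5% of them against 21.6% of all genes tested. Between female KO and female WT MEFs 3 of 34 passed, 2 higher and 1 lower, or 8.82% against 11.5% of all genes. With both sexes together and sex as a covariate, 8 passed, 5 higher and 3 lower, or 23.5% against 21.0%. The change with KO differed between the sexes for 5 genes by the interaction term, or 14.7% against 13.0%. These shares are near those of all genes. The median absolute log2 fold change (log2FC, on log2(TPM + 1)) was 0.11 in males for these 34 enzymes and 0.17 for all genes tested, and in females 0.062 and 0.13. A total of 24 genes in males and 31 in females had a log2FC within ±0.2. KO and WT libraries did not overlap for 18 genes in males, or 52.9% against 40.0% of all genes tested, and for 10 in females, or 29.4% against 33.6%. Without 1 library the female count fell from 3 to 0 for female WT replicate 2 or 3 and for each of the 3 female KO libraries.

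**Figure D2:**
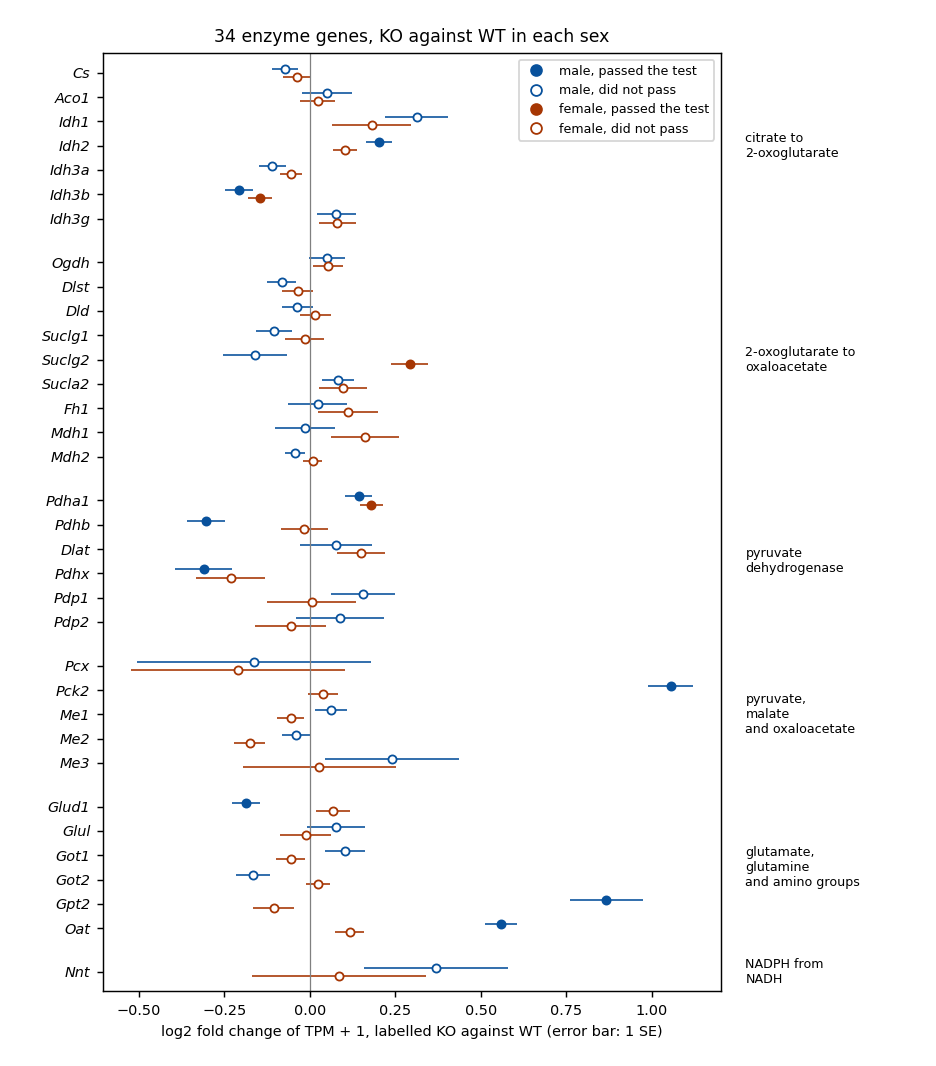
Log2FC of each gene between KO and WT libraries in males (blue) and females (brown), with 1 standard error, filled where the gene passed at an adjusted p under 0.05 over all genes (limma). Pck2, Gpt2 and Oat stand far right in males at 1.05, 0.87 and 0.56, while the female points lie between -0.23 and 0.29.

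The largest changes were in 3 genes at the edge of the cycle, and they were found in males. Pck2 is the mitochondrial phosphoenolpyruvate carboxykinase, which turns oxaloacetate into phosphoenolpyruvate. Gpt2 is the mitochondrial alanine aminotransferase, which passes the amino group of glutamate to pyruvate. Oat, ornithine aminotransferase, links ornithine with glutamate semialdehyde, a precursor of proline. Their promoters are shown first since these genes moved together in male KO MEFs. The sequences are from RefSeq (GRCm38.p6), 250 bases before to 50 after the annotated start, written along the gene's own strand, and lie at chr14:55540016-55540315 (+ strand) for Pck2, chr8:85492326-85492625 (+ strand) for Gpt2 and chr7:132576349-132576648 (- strand) for Oat.
Pck2: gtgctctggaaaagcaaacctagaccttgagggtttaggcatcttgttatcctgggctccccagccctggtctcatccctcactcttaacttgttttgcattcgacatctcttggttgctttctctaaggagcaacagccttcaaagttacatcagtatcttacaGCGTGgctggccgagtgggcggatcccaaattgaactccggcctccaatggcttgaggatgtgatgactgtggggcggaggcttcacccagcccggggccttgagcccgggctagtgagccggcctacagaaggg
Gpt2: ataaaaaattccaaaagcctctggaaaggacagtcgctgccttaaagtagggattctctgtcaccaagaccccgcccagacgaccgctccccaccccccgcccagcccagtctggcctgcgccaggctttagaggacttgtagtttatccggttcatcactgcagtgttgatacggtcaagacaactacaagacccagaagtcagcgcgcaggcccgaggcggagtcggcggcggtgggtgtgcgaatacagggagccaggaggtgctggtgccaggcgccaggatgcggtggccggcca
Oat: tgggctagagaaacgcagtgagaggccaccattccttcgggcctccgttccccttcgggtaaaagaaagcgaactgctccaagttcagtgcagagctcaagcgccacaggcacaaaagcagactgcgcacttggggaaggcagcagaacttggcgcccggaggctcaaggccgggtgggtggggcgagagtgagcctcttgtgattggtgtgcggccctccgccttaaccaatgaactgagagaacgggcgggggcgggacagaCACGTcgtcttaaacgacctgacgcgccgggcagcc
Capitals mark every match to 1 of 6 motifs searched on both strands. These were TGATGNAAT, an element bound by Atf4, TGACNNNGC, the core of the antioxidant response element, ACGTG and GCGTG, cores of the hypoxia response element, TCAAGGTCA, bound by estrogen-related receptors, and the binding site of Nrf1. The Pck2 window held GCGTG once, 85 bases before the start, and the Oat window held ACGTG once on the opposite strand, 15 bases into the transcript. The letters of GCGTG occur in the promoters of 35.2% of all genes in that table and those of ACGTG in 21.8%, so either is common. None of the 6 motifs was in the Gpt2 window, and TGATGNAAT, found for 1.08% of all genes, was in none of the 3. It was the only form of the Atf4 element searched. The Pck2 window holds a form with another last letter, which was not counted. A match is a description of letters only.

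Pck2 (chromosome 14 from 55540266 to 55551242, GENCODE annotation of GRCm38) was at 70.2, 82.1 and 71.1 TPM in male WT and at 156, 154 and 156 TPM in male KO MEFs. The female libraries lay between, at 95.9, 101 and 94.9 TPM in WT and 98.5, 104 and 97.5 in KO. All male KO libraries were above all others and the male WT libraries were the lowest. The mean was 2.09-fold higher in male KO than in male WT (log2FC 1.05, standard error 0.065, limma BH-adjusted p = 7.1e-05). The female log2FC was 0.04 (standard error 0.043, limma BH-adjusted p = 0.61), and the KO change differed between the sexes (interaction 1.02, limma BH-adjusted p = 8.4e-06). Pck1, the cytosolic form, had a mean of 0.00334 TPM and was not tested.

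Gpt2 (chromosome 8 from 85492576 to 85527560) was at 20.7, 22.5 and 19.1 TPM in male WT and at 37.7, 44.3 and 34.5 TPM in male KO MEFs. It stood at 27.3, 29.0 and 27.2 TPM in female WT and at 24.5, 26.8 and 26.1 in female KO MEFs. The order of the groups was that of Pck2, with male KO highest and male WT lowest, but female KO lay below female WT, without overlap. In males it rose 1.87-fold (log2FC 0.87, standard error 0.11, limma BH-adjusted p = 0.0017), against a log2FC of -0.11 in females (limma BH-adjusted p = 0.31), and the interaction was 0.97 (limma BH-adjusted p = 0.00031). The cytosolic alanine aminotransferase Gpt did not pass in either sex.

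Oat (chromosome 7 from 132557478 to 132576398) was at 108, 109 and 101 TPM in male WT and at 156, 152 and 161 TPM in male KO MEFs. In females it was at 112, 104 and 106 TPM in WT and 115, 120 and 115 in KO MEFs. Only the male KO libraries stood clear of the other 9, which spanned 101 to 120 TPM. The male increase was 1.48-fold (log2FC 0.56, standard error 0.047, limma BH-adjusted p = 0.00029), the female log2FC was 0.12 (standard error 0.043, limma BH-adjusted p = 0.13) and the interaction 0.44 (limma BH-adjusted p = 0.00062). Oat lies within the annotated span of Fgfr2 on the same strand without sharing an exonic base, and Fgfr2 also rose in male KO MEFs (log2FC 0.46, limma BH-adjusted p = 0.0060). With sex as a covariate Pck2 (log2FC 0.55, limma BH-adjusted p = 0.024) and Oat (0.34, limma BH-adjusted p = 0.0057) passed and Gpt2 (0.38, limma BH-adjusted p = 0.10) did not. The Pck2 call in that comparison was lost without any 1 of the 6 male libraries (adjusted p from 0.0515 to 0.0560).

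**Figure D3:**
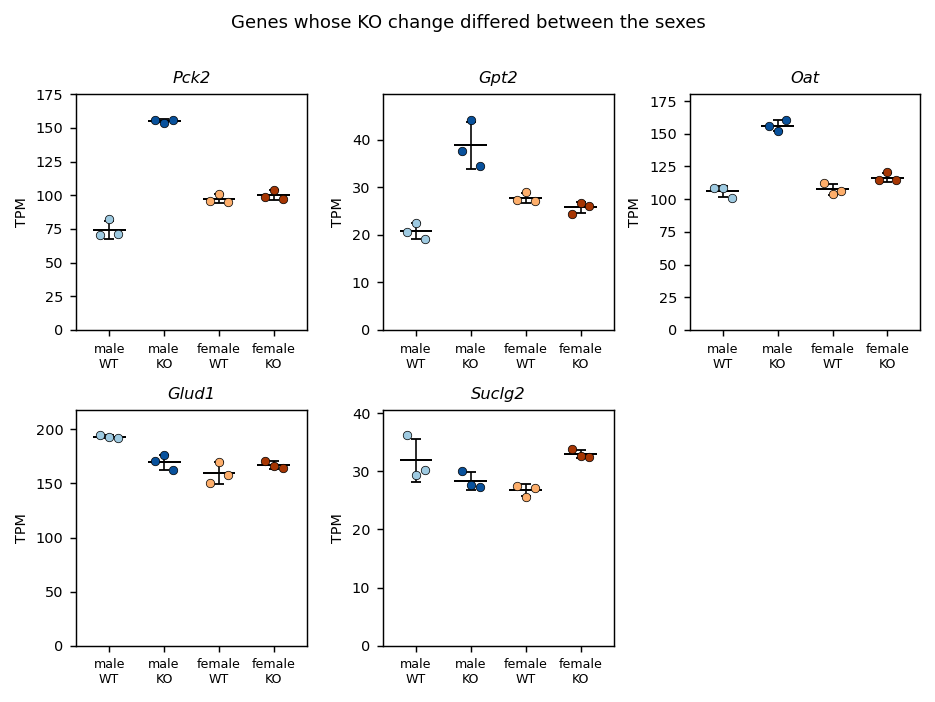
TPM of the 5 genes whose KO change differed between the sexes, 1 point per library, with the group mean and SD (n = 3, axes start at 0). Pck2, Gpt2 and Oat are highest in male KO MEFs, Glud1 is highest in male WT MEFs, and Suclg2 is higher in female KO than in female WT MEFs.

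Glud1 and Suclg2 differed between the sexes in the other direction. Glud1, glutamate dehydrogenase, makes 2-oxoglutarate from glutamate and stood at 194, 193 and 192 TPM in male WT and 170, 176 and 162 in male KO MEFs. Female WT libraries were at 150, 170 and 158 TPM and female KO libraries at 171, 166 and 164. The male WT libraries were thus above all others, and the female groups overlapped. The log2FC was -0.19 in males (standard error 0.041, limma BH-adjusted p = 0.019) and 0.07 in females (limma BH-adjusted p = 0.43), with an interaction of -0.25 (limma BH-adjusted p = 0.024). The male call was lost without any male WT library or without male KO replicate 1 or 3 (adjusted p from 0.0506 to 0.0584). The interaction was lost without male WT replicate 1, male KO replicate 3, female WT replicate 1 or 3, or female KO replicate 1 (adjusted p from 0.0503 to 0.0590).

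Suclg2 encodes the GDP-forming beta subunit of succinyl-CoA ligase. It was at 27.5, 25.6 and 27.1 TPM in female WT and at 33.8, 32.6 and 32.4 TPM in female KO MEFs, while male WT libraries were at 36.2, 29.3 and 30.2 TPM and male KO libraries at 30.1, 27.6 and 27.2. KO and WT were separate in females and overlapped in males, where male WT replicate 1 was the highest of all 12. It rose 1.23-fold in female KO MEFs (log2FC 0.29, standard error 0.054, limma BH-adjusted p = 0.019), with a log2FC of -0.16 in males (limma BH-adjusted p = 0.27) and an interaction of -0.45 (limma BH-adjusted p = 0.017). The female call was lost without female WT replicate 2 or 3 or any female KO library (adjusted p from 0.0522 to 0.0639), while the interaction held without each library in turn. The partners of Suclg2, the shared alpha subunit Suclg1 and the ADP-forming beta subunit Sucla2, passed in neither sex.

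The first steps of the cycle held a small rearrangement among the isocitrate dehydrogenases. Idh2, the NADP-dependent form of the matrix, was at 161, 169 and 167 TPM in male WT and at 186, 192 and 194 TPM in male KO MEFs. In females it was at 165, 164 and 167 TPM in WT and at 176, 185 and 172 TPM in KO MEFs. KO libraries were above WT libraries in each sex. The log2FC was 0.20 in males (standard error 0.037, limma BH-adjusted p = 0.0093), 0.10 in females (limma BH-adjusted p = 0.11) and 0.15 with sex as a covariate (limma BH-adjusted p = 0.0032).

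Idh3b is the beta subunit of the NAD-dependent enzyme that runs in the cycle. Male WT libraries were at 137, 137 and 132 TPM and male KO libraries at 122, 115 and 116. Female WT libraries were at 134, 132 and 135 TPM and female KO libraries at 120, 118 and 125. All 6 KO libraries were below all 6 WT libraries. It fell in males (log2FC -0.21, standard error 0.041, limma BH-adjusted p = 0.013), in females (-0.15, limma BH-adjusted p = 0.043) and with sex as a covariate (-0.18, limma BH-adjusted p = 0.0011), and the interaction was -0.06 (limma BH-adjusted p = 0.51). The female call was lost without any 1 of the 6 female libraries (adjusted p from 0.0517 to 0.124), and also under median-of-ratios scaling (adjusted p = 0.0667), quantile normalization, no trend and no filter. Its neighbour Nop56 on the opposite strand shares 5 exonic bases with it and was also lower with sex as a covariate (log2FC -0.14, limma BH-adjusted p = 0.013).

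For the catalytic alpha subunit Idh3a, male WT libraries were at 112, 108 and 113 TPM and male KO libraries at 100, 104 and 104. Female WT libraries were at 125, 124 and 127 TPM and female KO libraries at 120, 119 and 124. KO was below WT in each sex without overlap, and females were above males. It passed with sex as a covariate only (log2FC -0.08, limma BH-adjusted p = 0.042), and that call was lost without 10 of the 12 libraries in turn, all but female WT replicate 2 and female KO replicate 3 (adjusted p from 0.0561 to 0.0950), and under median-of-ratios scaling (adjusted p = 0.162). The gamma subunit Idh3g, an X-linked gene, had a log2FC of 0.08 in each sex and did not pass. Of the 3 subunits, Idh3a and Idh3b were thus lower in KO in each sex, while the Idh3g groups overlapped. A difference between Idh3g and the other subunits was not tested.

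Idh1, the cytosolic NADP-dependent form, was at 22.9, 21.3 and 24.2 TPM in male WT and at 28.6, 31.4 and 25.7 TPM in male KO MEFs, and at 20.5, 22.5 and 16.9 TPM in female WT and 20.8, 22.6 and 24.7 TPM in female KO MEFs. The groups were separate in males and overlapped in females. It passed with sex as a covariate (log2FC 0.25, limma BH-adjusted p = 0.041) and missed in males (0.31, limma BH-adjusted p = 0.0503). The covariate call was lost without any male WT library, male KO replicate 1 or 2, female WT replicate 1 or 3, or female KO replicate 2 or 3 (adjusted p from 0.0504 to 0.0891). Cs and Aco1 did not pass in any comparison of KO with WT, with a log2FC from -0.07 to 0.05.

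In males the pyruvate dehydrogenase complex showed subunits moving in opposite directions, while in females Pdha1 was the only subunit that passed. Pdha1, the X-linked alpha subunit that carries the regulatory phosphorylation sites, was at 101, 104 and 103 TPM in male WT and at 112, 111 and 117 TPM in male KO MEFs, and at 107, 103 and 102 TPM in female WT and 118, 117 and 119 TPM in female KO MEFs. All 6 KO libraries were above all 6 WT libraries. It rose in males (log2FC 0.14, standard error 0.040, limma BH-adjusted p = 0.046), in females (0.18, standard error 0.034, limma BH-adjusted p = 0.020) and with sex as a covariate (0.16, limma BH-adjusted p = 0.0012). The male call was lost without any 1 of the 6 male libraries (adjusted p from 0.0538 to 0.139) and the female call without female WT replicate 2 or 3 or any female KO library (adjusted p from 0.0567 to 0.0714), while the covariate call held without each of the 12. Map3k15 on the opposite strand shares 603 exonic bases with Pdha1 and had a mean of 1.17 TPM.

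Pdhb, the beta subunit of the same component, was at 73.2, 65.9 and 69.4 TPM in male WT and at 55.0, 58.0 and 55.4 TPM in male KO MEFs. In females it was at 55.4, 57.8 and 57.2 TPM in WT and at 62.3, 53.0 and 53.6 TPM in KO MEFs. The male WT libraries stood above the other 9, and the female groups overlapped. It fell in males (log2FC -0.30, standard error 0.055, limma BH-adjusted p = 0.0092), with -0.02 in females (limma BH-adjusted p = 0.91). The difference between the sexes missed the threshold (interaction -0.29, limma BH-adjusted p = 0.058).

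Pdhx, which binds dihydrolipoamide dehydrogenase to the core of the complex, was at 26.4, 22.9 and 23.5 TPM in male WT and at 18.2, 19.4 and 20.5 TPM in male KO MEFs. In females it was at 23.3, 25.3 and 21.2 TPM in WT and at 22.2, 18.5 and 18.4 TPM in KO MEFs. KO was below WT in males, and in females KO replicate 1 lay within the WT range. It fell in males (log2FC -0.31, standard error 0.082, limma BH-adjusted p = 0.036) and with sex as a covariate (-0.27, limma BH-adjusted p = 0.013), against -0.23 in females (limma BH-adjusted p = 0.20). The male call was lost without any 1 of the 6 male libraries (adjusted p from 0.0562 to 0.103) and under median-of-ratios scaling (adjusted p = 0.0515), while the covariate call held without each of the 12. The core acetyltransferase Dlat and the phosphatases Pdp1 and Pdp2, which switch the complex on, did not pass in either sex.

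**Figure D4:**
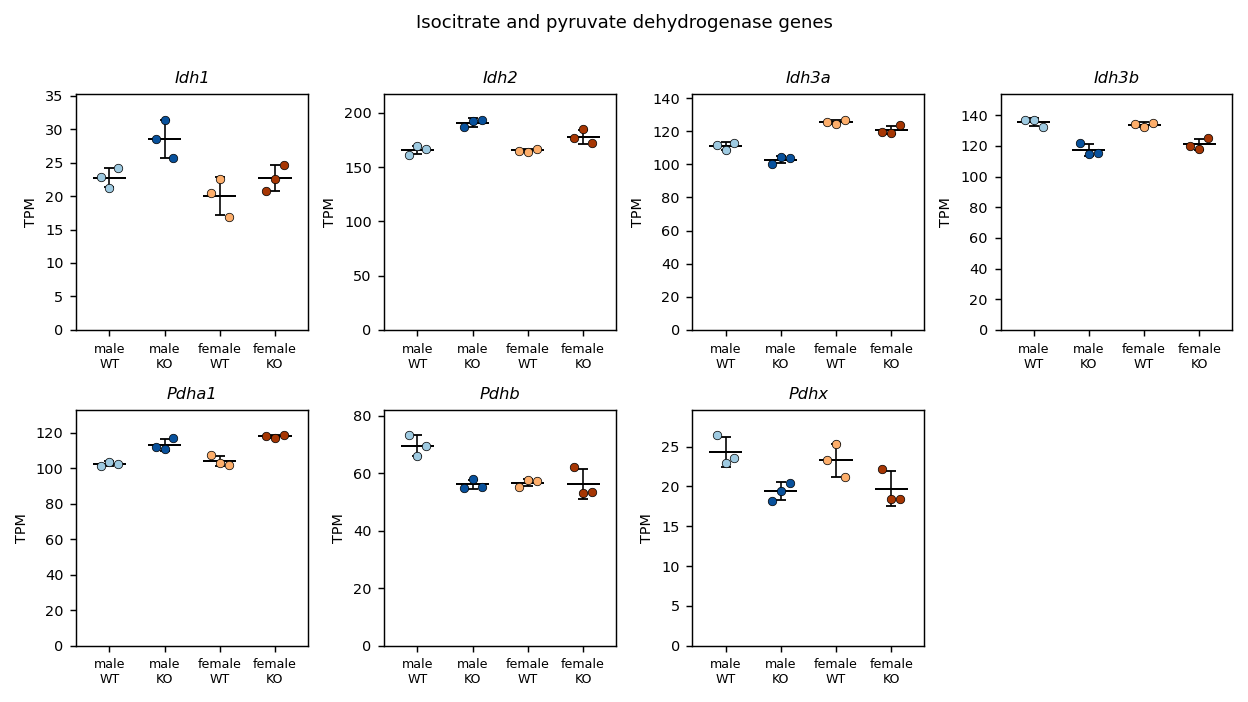
TPM of 4 isocitrate dehydrogenase and 3 pyruvate dehydrogenase genes, 1 point per library, with the group mean and SD (n = 3, axes start at 0). Idh3b is lower and Pdha1 higher in KO than in WT MEFs of each sex, and Pdhb and Pdhx are lower in male KO than in male WT MEFs.

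From 2-oxoglutarate to oxaloacetate none of 9 genes passed in males by limma, against 21.6% of all genes tested. Of the 9, 0 had an unadjusted p under 0.05 there, against 35.1% of all genes. Their log2FC ran from -0.16 to 0.08. These 9 genes are the 2-oxoglutarate dehydrogenase subunits Ogdh and Dlst, dihydrolipoamide dehydrogenase (Dld), which this complex shares with pyruvate dehydrogenase, Suclg1, Suclg2, Sucla2, fumarase (Fh1), Mdh1 and Mdh2. In females Suclg2 passed, as above, and the others ran from a log2FC of -0.04 for Dlst to 0.16 for Mdh1. Mdh2, the most abundant, had a log2FC of -0.04 in males and 0.01 in females, each with a standard error near 0.03.

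Among the enzymes around pyruvate and malate, only Pck2 passed. Me1, the cytosolic malic enzyme, ran from 55.5 to 62.5 TPM and Me2, a mitochondrial one, from 64.0 to 77.0 TPM. Me2 was at 77.0, 73.1 and 72.5 TPM in female WT and 68.0, 64.0 and 64.6 TPM in female KO MEFs, without overlap, and missed the threshold (log2FC -0.18, limma BH-adjusted p = 0.051). Me3 had a log2FC of 0.24 in males and 0.03 in females with standard errors of 0.20 and 0.22. Pcx, pyruvate carboxylase, varied most within a group. It was at 7.77, 23.5 and 17.5 TPM in male KO and 15.2, 35.3 and 25.5 TPM in female KO MEFs, against 16.0, 17.6 and 16.5 in male WT and 32.1, 20.5 and 33.0 in female WT MEFs. The log2FC was -0.16 in males and -0.21 in females, with standard errors of 0.34 and 0.31. Even changes larger than these standard errors could have been missed.

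Of the remaining genes that handle amino groups, glutamine synthetase (Glul) and the aspartate aminotransferases Got1 and Got2 did not pass in either sex. Got2 was at 191, 199 and 210 TPM in male WT and 171, 184 and 179 TPM in male KO MEFs, without overlap, and missed narrowly (log2FC -0.17, limma BH-adjusted p = 0.054), while the female log2FC was 0.02. Got1 had a log2FC of 0.10 in males and -0.06 in females, and Glul of 0.08 and -0.01.

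Nnt, which moves hydride from NADH to NADP in the inner mitochondrial membrane, was listed under 2 identifiers on the same strand of chromosome 13, and all 3339 exonic bases of the lesser one lie in exons of the other. The higher identifier ran from 17.6 to 39.2 TPM and the lesser from 0.0354 to 18.6 TPM, and in each group the library with more of one had less of the other. By the higher one alone, the male log2FC was 0.37 with a standard error of 0.21 (limma BH-adjusted p = 0.265). The female log2FC was 0.09 with a standard error of 0.25 (limma BH-adjusted p = 0.87). The female direction turned without female WT replicate 3 (-0.14) or female KO replicate 1 or 3. Summed, a choice made after the values were seen, Nnt stood at 32.2, 34.6 and 32.5 TPM in the male WT and 37.6, 39.9 and 37.8 TPM in the male KO libraries. In females the sums were 35.0, 35.7 and 34.5 TPM in WT and 38.4, 39.4 and 39.3 TPM in KO libraries. The sum was steadier than either part, and all 6 KO libraries were above all 6 WT libraries. Its log2FC was 0.21 in males (limma BH-adjusted p = 0.043), 0.15 in females (limma BH-adjusted p = 0.079) and 0.18 with sex as a covariate (limma BH-adjusted p = 0.0039). The male call was lost without any 1 of the 6 male libraries (adjusted p from 0.0520 to 0.127), while the covariate call held without each of the 12.

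**Figure D5:**
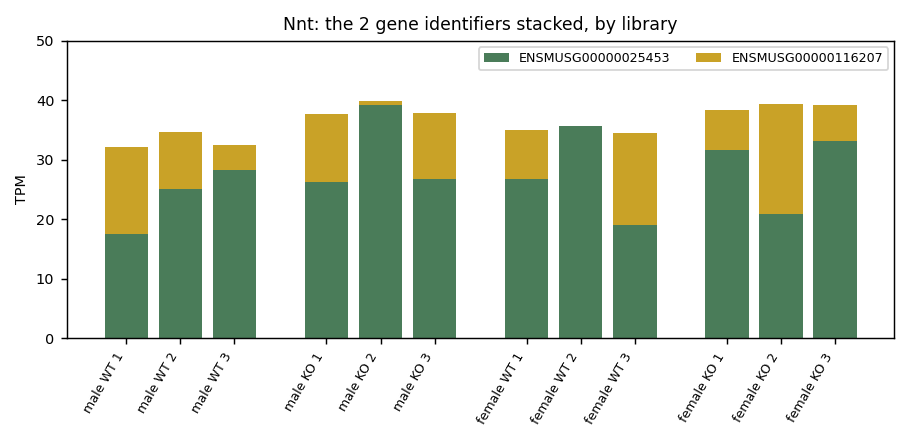
TPM of the 2 Nnt identifiers stacked for each of the 12 libraries. The split between them differs from library to library, while the sum is from 32.2 to 35.7 TPM in WT and from 37.6 to 39.9 TPM in KO MEFs.

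Paired subunits and isozymes were compared as log2 ratios of TPM + 1 within each library, which share the values of the fits above. Of 8 ratios, 4 differed between KO and WT by an exact two-sided permutation test within sex, with Benjamini-Hochberg adjustment over the 8 and a smallest p of 0.005. Pdhb to Pdha1 was lower in KO by 0.45 in males and 0.20 in females on the log2 scale (mean -0.32, exact permutation p = 0.01, adjusted 0.02), a ratio of 0.68 falling to 0.50 in males and 0.55 to 0.48 in females. Pdhx to Dlat was lower by 0.39 and 0.38 (mean -0.38, exact permutation p = 0.01, adjusted 0.02). Idh3b to Idh3a was lower by 0.10 and 0.09 (mean -0.09, exact permutation p = 0.01, adjusted 0.02). Me2 to Me1 was lower by 0.10 and 0.12 (mean -0.11, exact permutation p = 0.005, adjusted 0.02). The mitochondrial to cytosolic ratios of Idh2 to Idh1, Mdh2 to Mdh1 and Got2 to Got1 did not pass. Sucla2 to Suclg2, the ADP-forming against the GDP-forming subunit, did not pass either (exact permutation p = 0.775, adjusted 0.775), with a KO minus WT difference of 0.24 in males and -0.19 in females.

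Males and females were also compared within each genotype. In WT MEFs 7 of 34 genes passed, or 20.6% against 12.8% of all genes tested by limma. Pdhb (log2FC 0.29) and Glud1 (0.28) were higher in males, and Idh3a (-0.17), Pcx (-0.71), Pck2 (-0.38), Glul (-0.35) and Gpt2 (-0.41) were lower, with BH-adjusted p from 0.012 to 0.043. Without 1 library the count fell to 3 for female WT replicate 1 or 3, and to 4 for male WT replicate 1 or 2. Of these calls only that of Pck2 held without each library in turn. In KO MEFs 6 of 34 passed, or 17.6% against 16.6% of all genes. Pck2 (0.63), Gpt2 (0.57), Oat (0.42) and Pdp1 (0.54) were higher in males, and Idh3a (-0.23) and Got2 (-0.19) were lower. The Got2 call was lost without male KO replicate 1 or 3 or female KO replicate 1 or 2 (adjusted p from 0.0609 to 0.0778), and that of Pdp1 without male KO replicate 3 (adjusted p = 0.0597). Pck2 and Gpt2 were thus lower in male than in female MEFs when WT and higher when KO. Pdha1 did not pass between the sexes in either genotype, with a log2FC of -0.02 in WT and -0.06 in KO MEFs.

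Other genes of these pathways were read from a list of 34, of which 33 were tested. In males 5 of the 33 passed (limma), 4 of them higher, or 15.2% against 21.6% of all genes tested. In females 1 passed, which was higher, or 3.03% against 11.5% of all genes. Pycr1, which makes proline from the product of Oat, was at 26.7, 32.0 and 28.1 TPM in male WT and 69.8, 78.1 and 64.9 TPM in male KO MEFs, and at 33.8, 35.2 and 38.2 TPM in female WT and 41.6, 39.0 and 34.6 TPM in female KO MEFs. Male KO stood apart and the female groups overlapped (log2FC 1.26 in males, limma BH-adjusted p = 0.00015, and interaction 1.17, limma BH-adjusted p = 0.00010). Aldh18a1, which makes the same intermediate from glutamate, rose in males (0.53, limma BH-adjusted p = 0.00069), with an interaction of 0.62 (limma BH-adjusted p = 0.0023). Pdk1, a kinase that switches pyruvate dehydrogenase off, was at 3.53, 3.85 and 3.26 TPM in male WT and 10.2, 9.95 and 8.74 TPM in male KO MEFs, and at 2.55, 3.44 and 1.76 TPM in female WT and 5.41, 4.46 and 3.77 TPM in female KO MEFs. KO was above WT in each sex (log2FC 1.22 in males, limma BH-adjusted p = 0.00049, and 0.65 in females, limma BH-adjusted p = 0.10), and the interaction of 0.58 did not pass (limma BH-adjusted p = 0.16). Mpc1, a subunit of the mitochondrial pyruvate carrier, rose in males (0.37, limma BH-adjusted p = 0.0053). The kinase Pdk3 rose in females (0.23, limma BH-adjusted p = 0.030), a call lost without any 1 of the 6 female libraries (adjusted p from 0.0560 to 0.0966). The succinate dehydrogenase subunits Sdha, Sdhb, Sdhc and Sdhd passed in neither sex.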

How the data were processed

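PolyA RNA of 12 MEF cultures was sequenced by a service provider, and the authors quantified it with Salmon (1.10.1 per the labels) against GRCm38 and deposited TPM for 34866 genes. TPM hold no read totals, so depth is unknown and no counting error is given. Since TPM are not counts, the count model of the study was not used. Limma 3.58.1 in R 4.3.3 was applied to log2(TPM + 1) with a mean-variance trend. The 12504 genes averaging 1 TPM or more entered, with Benjamini-Hochberg adjustment over all of them and a threshold of 0.05. KO and WT, and the sexes, were compared in fits of 6 libraries, and the covariate and interaction terms over 12. Alternatives were another pseudocount, filter, scaling, trend or fit, a replicate block and each library left out. The code was tested on simulated data. Libraries of equal replicate number did not deviate together and were not paired. All 34 genes are accounted for, and those called between KO and WT or by the interaction are given by library. The genes and lists were chosen with earlier results of these data known. Symbols and positions are from GENCODE (99.4% of identifiers matched), and where a symbol had 2 identifiers the one with the higher mean was used. Some genes of the pathway list are not reported here. Promoters of 30 of 34 genes were found in a RefSeq table.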

Additional observations from a re-analysis of the deposited data

Results flagged for a closer look

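For 5 genes the change between KO and WT differed between male and female MEFs by the interaction term of limma with Benjamini-Hochberg adjustment. The term, the male minus the female log2FC, was 1.02 for Pck2, 0.97 for Gpt2, 0.44 for Oat, -0.25 for Glud1 and -0.45 for Suclg2. KO was higher than WT in males for the first 3 genes and lower for Glud1, while Suclg2 passed in females only. Groups of 3 libraries were not screened for single outlying samples.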

How the results depend on the processing

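Between male KO and male WT MEFs, Pck2, Gpt2, Oat, Idh2, Idh3b and Pdhb kept their direction and stayed past the threshold in all 14 alternatives, and the number of genes called ran from 6 to 11. The interaction gave from 4 to 6 genes and the comparison of the sexes in KO MEFs from 4 to 9. In females the 3 calls fell to 1 without the mean-variance trend and to between 0 and 2 without 1 library. With sex as a covariate the 8 calls ran from 5 to 8 without 1 library, and in WT MEFs the 7 calls between the sexes ran from 3 to 5. The 4 isozyme ratios stayed at 4 without each library in turn. Same-numbered libraries did not deviate together (correlations from -0.057 to 0.078). With the replicate number as a block the counts were 0 in females and 3 between the sexes in WT MEFs, and the block left 0 isozyme ratios, a test in which too few arrangements exist for 4 ratios to pass. Nnt by its higher identifier in females turned to -0.14, -0.0002 and -0.031 without female WT replicate 3, female KO replicate 1 and female KO replicate 3, within a range of -0.14 to 0.30 over all single libraries left out. The cause was not tested. TPM give no depth, so precision rests on 3 libraries a group.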

Other observations

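The 34 genes together held from 2989 to 3131 TPM of each library, so their summed share of the transcripts varied little over the 12. WT libraries held from 2989 to 3031 TPM and KO libraries from 3040 to 3131 TPM, without overlap, a difference that was not tested. The male sums include Pck2, at a mean of 74.5 TPM in WT and 155 TPM in KO MEFs. They also include Oat, at a mean of 106 TPM in male WT and 156 TPM in male KO MEFs. Of the 9 genes called in males, 5 were higher and 4 lower in KO, so the sum does not describe each gene. Among the 30 genes with a promoter in the RefSeq table, the antioxidant response core TGACNNNGC was found for 6, or 20.0% against 14.0% of all 27025 genes there. These were Idh3g, Dlst, Sucla2, Mdh1, Pdhb and Me1. The hypoxia core ACGTG was found for 8, or 26.7% against 21.8%, and GCGTG for 14, or 46.7% against 35.2%. In Me1, a textbook target of Nrf2, the letters lie 6 bases before the annotated start. The activity of Nrf2 was not tested. TGATGNAAT, the only form of the Atf4 element searched, the estrogen-related receptor element and the Nrf1 site were found in none of the 30. Their shares of all genes were 1.08%, 0.466% and 1.07%. Forms of the Atf4 element with another last letter, such as that in the Pck2 window, were not counted. Idh3a, Me2, Nnt and Pdp1 had no entry. These are matches of letters, and binding was not measured.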
